A study of Rattus norvegicus with 2 samples.

Results

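The integrated stress response and the endoplasmic reticulum (ER) stress response were followed through 10 listed genes, Atf3, Atf4, Ddit3, Ddit4, Xbp1, Trib3, Asns, Sesn2, Herpud1 and Calr. They were listed by name for their known roles, with earlier results of these data known. Their RefSeq entries were matched to rat gene symbols. Of the 10 genes, 8 had a value, among 9894 genes listed in either library. Ddit3 and Trib3 were found by neither symbol, accession nor description, so their expression is not analysed here.

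The libraries came from neurons of Sprague-Dawley rat embryos at embryonic day 16, dissociated from cortex. The cells of both groups were electroporated with a plasmid and kept for 48 h in Neurobasal medium with serum and B27. The Scramble group received the control plasmid and the RNAi group a plasmid coding for a small interfering RNA against PIWIL1, a PIWI protein best known from sperm development. Each group was 1 library of total RNA from a culture, and no sorting of the cells that took up the plasmid is described. In such a bulk sample fewer cells of a type and less RNA per cell cannot be told apart. With 1 library per group, every difference given here is between these 2 libraries and has no replicate check.

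The assay was digital gene expression, which reads a 21-base tag from each transcript, starting at a CATG site. The copies of a gene's tags add up to its count, and TPM here divides that count by the total of clean tags, with no scaling to transcript length, so levels are compared between libraries and not between genes. The Scramble library held 1947600 copies on genes and the RNAi library 1865913. PIWIL1 itself was found in neither library, so the knockdown could not be checked in these data. Of 11 neuronal markers 10 had a value, with a summed level of 4593 TPM in Scramble and 4028 TPM in RNAi. Stmn2 stood at 2210 and 1719 TPM, and the other 9 summed to 2384 and 2309 TPM. Among the 9, Gap43 was higher in RNAi (788 and 1072 TPM). It turned to a log2 ratio of -0.28 after the tag-end correction described below. Tubb3 (454 and 323 TPM) and Neurod6 (376 and 257 TPM) were lower. Map2, with 24 and 8 copies, and Snap25 were called lower, as were 5.97% of all genes. After the same tag-end correction Snap25 stood at a log2 ratio of -0.50, short of the fold for a call. The 8 progenitor markers with a value of 10 summed to 1093 and 1370 TPM, but only Vim was higher in RNAi (790 and 1127 TPM), and the other 7, all lower, summed to 303 and 242 TPM. Of the neuronal markers 6 were lower and 4 higher by TPM. The 4 include Rbfox3, with 8 and 8 copies, and Tbr1, with 85 and 84. Microglial markers (4 of 7 with a value) summed to 18.3 and 20.9 TPM, with Cx3cr1, P2ry12 and Ptprc without a value, and astrocyte markers (3 of 4) to 20.4 and 22.1 TPM. Fibroblast markers (5 of 5) summed to 546 and 523 TPM, erythroid markers (3 of 3) to 27.8 and 35.1 TPM, oligodendrocyte lineage markers (6 of 6) to 7.39 and 5.75 TPM, and the single endothelial or pericyte marker with a value, of 5, stood at 2.95 and 0.91 TPM. Whether these cells took part in the results was not tested.

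In the integrated stress response, kinases that sense starvation, haem shortage, viral RNA or unfolded protein phosphorylate the translation factor eIF2alpha. Translation of most mRNAs then slows, while that of ATF4 rises, and ATF4 drives genes of amino acid supply together with Atf3, Ddit3 (CHOP), Trib3, Sesn2 and Ddit4. In the ER stress response the sensors PERK, IRE1 and ATF6 act in parallel: PERK is one of the eIF2alpha kinases, IRE1 splices the Xbp1 mRNA into the form that codes for the active factor, and ATF6 is cut to free a transcription factor. XBP1 and ATF6 drive chaperones and degradation factors of the ER, among them Herpud1 and Calr. Much of this control acts on translation, splicing and protein cleavage, none of which a tag count records.

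The tags that carried most copies of the 6 better covered genes are shown because the ratio of a gene in these libraries rests on them. Capitals mark the end class used below, which is the last 2 bases, or the whole run where the tag ends in 3 or more A.
Ddit4: catgtttgttaaaacAAAAAA
Xbp1: catgcaattaaaaaagcaaCG
Calr: catgtcatctttaactacaAG
Atf4: catgtgatctttttgccccTC
Asns: catggaaagaaataaaagtAT
Herpud1: catgttagcaggacttttcTA
All 6 start at the last CATG before the transcript's 3′ end, called the 3′ most site. They held 94.0% of the copies of Ddit4, 61.2% of Xbp1, 66.6% of Calr, 97.6% of Atf4, 87.5% of Asns and 97.3% of Herpud1. The tag of Ddit4 was the only one of these to end in a run of A.

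Of the 8 genes with a value, Ddit4 alone was called higher in the RNAi library and none was called lower. A gene was called at a false discovery rate (FDR) of 0.05 or less, adjusted by the Benjamini-Hochberg method over the Fisher's exact tests of all 9894 genes, with a log2 TPM ratio of at least 0.58 in size (1.49-fold). Over all genes 293 were called higher (2.96%) and 591 lower (5.97%). This balance depended on the scaling: 398 were higher (4.02%) and 459 lower (4.64%) with edgeR's TMM factors, and 382 (3.86%) and 475 (4.8%) with DESeq2's size factors, while the members' calls were 1 and 0 under both. By the fold alone, with no test, 883 of the 8899 genes listed in both libraries stood above 0.58 (9.92%) and 1630 below -0.58 (18.3%). Ddit4 was also the only member past the fold. The log2 ratios of the 8 members ranged from -0.06 to 0.83 with a median of 0.25, and 7 were above 0. The median over all genes in both libraries was -0.085, with 43.3% above 0. Because the members were chosen with earlier results of these data known, these medians only describe them. Plotted on a log axis, the levels of 7 of the 8 genes have overlapping intervals in the 2 libraries. Overlap is not a test, and Xbp1 (FDR 0.0447) and Herpud1 (FDR 0.0293), both by Fisher's exact test, passed the FDR short of the fold.

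**Figure D1:**
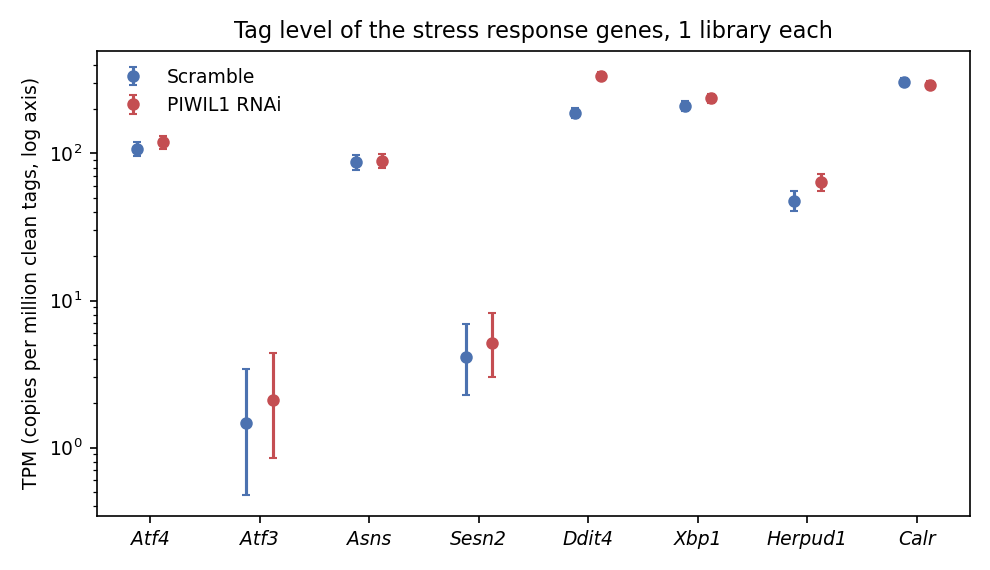
TPM of the 8 genes with a value (log axis) in the Scramble library (blue) and the RNAi library (red); bars are exact 95% intervals that cover counting error only. Ddit4 stands at 190 TPM in Scramble and 338 TPM in RNAi with intervals that do not overlap. The intervals of the other 7 genes overlap, though Xbp1 and Herpud1 among them passed the FDR short of the fold.

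Ddit4 (NM_080906), which codes for REDD1, an inhibitor of the growth kinase complex mTORC1, had 642 copies in Scramble and 1117 in RNAi. Its level was 190 TPM (exact 95% interval 175 to 205) in Scramble and 338 TPM (319 to 359) in RNAi, a ratio of 1.78. The log2 ratio was 0.83, with an exact 95% interval of 0.69 to 0.98, and the FDR was 1.81e-32 by Fisher's exact test. These intervals cover counting error only, and variation between cultures was not measured.

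The rise of Ddit4 was carried by the A-ending tag shown above, which had 601 copies in Scramble and 1052 in RNAi (log2 ratio 0.84, 0.70 to 0.99). In these libraries the ratio of a tag moved with the run of A at its end. Over tags of other genes with at least 20 copies, the median log2 ratio was -0.16 for tags not ending in A, 0.29 for those ending in 4 A, 0.90 for those ending in 8 A and 1.91 for those ending in 13 or more. The 23 other tags ending in exactly 6 A had a median of 0.36 and quartiles of 0.19 and 0.74, and 20 of the 23 were above 0. The tag of Ddit4 exceeded 19 of the 23 (82.6%). A correction took the median of each end class, relative to that of all tags, out of every tag, which was 0.41 for this one. The log2 ratio of Ddit4 was then 0.48 (FDR 5.93e-10, Fisher's exact test on the corrected copies), short of the fold for a call. This FDR, like every other given after the correction, takes the class median as exact. It leaves out the spread of tags within a class and so overstates the evidence. After that correction 206 of all 9894 genes were called higher (2.08%) and 354 lower (3.58%), and of the 8 members none was called in either direction.

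**Figure D2:**
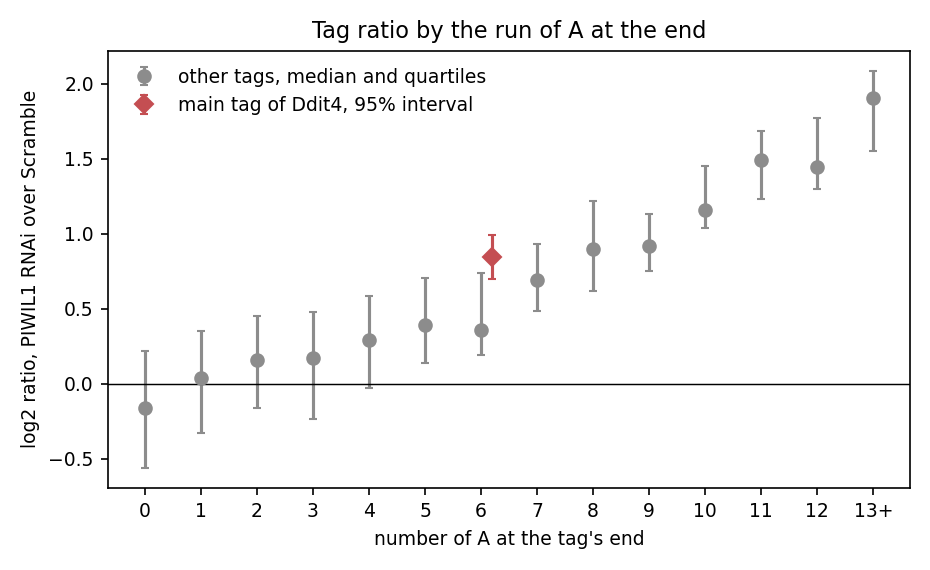
Median log2 ratio of tags with at least 20 copies (grey, bars from lower to upper quartile) against the number of A at the tag's end, with the main tag of Ddit4 (red, exact 95% interval) beside the tags that end in 6 A. The medians climb from -0.16 without A to 1.91 with 13 or more, and the Ddit4 tag at 0.84 lies above the upper quartile of its class, 0.74.

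The remaining tags of Ddit4 were few. The 7 tags at its other CATG sites had 30 copies in Scramble and 45 in RNAi together, a log2 ratio of 0.62 whose interval, -0.08 to 1.34, includes 0. Of the 7 tags 4 were higher in RNAi, 1 lower and 2 equal. Among them catgaatacacttgatgttCA at the second site had 4 and 9 copies, catggtctgaaaggaccgaGC at the fifth had 5 and 9, and catgtatcttattaattttTG at the sixth had 10 and 10. Within the gene, the 3′ most site and the other sites did not differ beyond counting error (Fisher's exact test, FDR 0.796 over 4417 genes with at least 20 copies on each side).

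Atf4 (NM_024403), the transcription factor at the centre of the integrated stress response, had 364 copies in Scramble and 393 in RNAi. Its level was 107 TPM (96.7 to 119) and 119 TPM (107 to 131), with intervals that overlap. The log2 ratio was 0.15 (-0.06 to 0.36) and the FDR 0.304 by Fisher's exact test, so a ratio past 0.36 lies outside its counting interval. The tag-end correction left it at 0.12. Its main tag had 358 and 381 copies.

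Atf3 (NM_012912), a factor of the same family that ATF4 induces, was close to the limit of detection. It had 5 copies in Scramble and 7 in RNAi (1.48 and 2.12 TPM), where 3 copies correspond to 0.886 and 0.908 TPM. The log2 ratio of 0.52 had an interval of -1.35 to 2.52 (FDR 0.782, Fisher's exact test), which leaves both its direction and its size open.

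Among the targets of ATF4, Asns (NM_013079), the asparagine synthetase, did not differ between the libraries beyond counting error, with 296 copies in Scramble and 294 in RNAi. These were 87.4 TPM (77.7 to 97.9) and 89.0 TPM (79.1 to 99.8), a log2 ratio of 0.03 (-0.21 to 0.26; FDR 0.866, Fisher's exact test). Its main tag, with 257 and 259 copies, ends in AT, and the 1039 other tags of that class had a median log2 ratio of -0.39. It stood above 85.4% of them, and the tag-end correction moved Asns to 0.34 (FDR 0.0332, Fisher's exact test), still short of the fold. Sesn2 (NM_001109358), an antioxidant and leucine-sensing protein that restrains mTORC1, had 14 and 17 copies (4.13 and 5.15 TPM). Its log2 ratio of 0.32 had an interval of -0.79 to 1.45 (FDR 0.797, Fisher's exact test), and its direction is open too.

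Xbp1 (NM_001004210), whose spliced mRNA codes for the factor of the IRE1 arm, had 712 copies in Scramble and 784 in RNAi. Its level was 210 TPM (195 to 226) and 237 TPM (221 to 255). The log2 ratio of 0.17 (0.03 to 0.32) passed the FDR, 0.0447 by Fisher's exact test, but not the fold. The tags count both splice forms together, so splicing was not measured.

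The tags of Xbp1 moved in opposite directions. The main tag shown above had 387 copies in Scramble and 528 in RNAi (log2 ratio 0.48, 0.29 to 0.68). At the second CATG site the tag catgagagtcaccagttctTT had 142 and 84 copies (-0.72, -1.13 to -0.32), lower than all but 14.2% of 1364 other tags ending in TT, whose median was -0.21. All tags of the 3′ most site together had 492 and 626 copies (0.38, 0.21 to 0.56), and those of the other sites 220 and 158 (-0.44, -0.75 to -0.14). The tags therefore gave a difference of 0.83 in log2 ratio between sites of the same gene (FDR 4.59e-05, Fisher's exact test). Such a difference with the 3′ most site higher was called in 381 of 4417 genes (8.63%), and one with it lower in 247 (5.59%).

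At the 3′ most site of Xbp1 a second tag differed from the main tag by C20T, counted from 1 at the C of CATG with the base of the main tag first. It is shown beside the main tag because the pair differ within the end class.
Xbp1 main tag: catgcaattaaaaaagcaaCG
Xbp1 C20T tag: catgcaattaaaaaagcaaTG
The C20T tag had 100 copies in Scramble and 87 in RNAi, a log2 ratio of -0.16 (-0.60 to 0.26) against 0.48 for the main tag. The 863 other tags ending in TG had a median of -0.67 and the 232 ending in CG a median of -0.08, so both Xbp1 tags lay above the median of their own class. The correction for tag ends gave 0.27 for the whole gene.

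**Figure D3:**
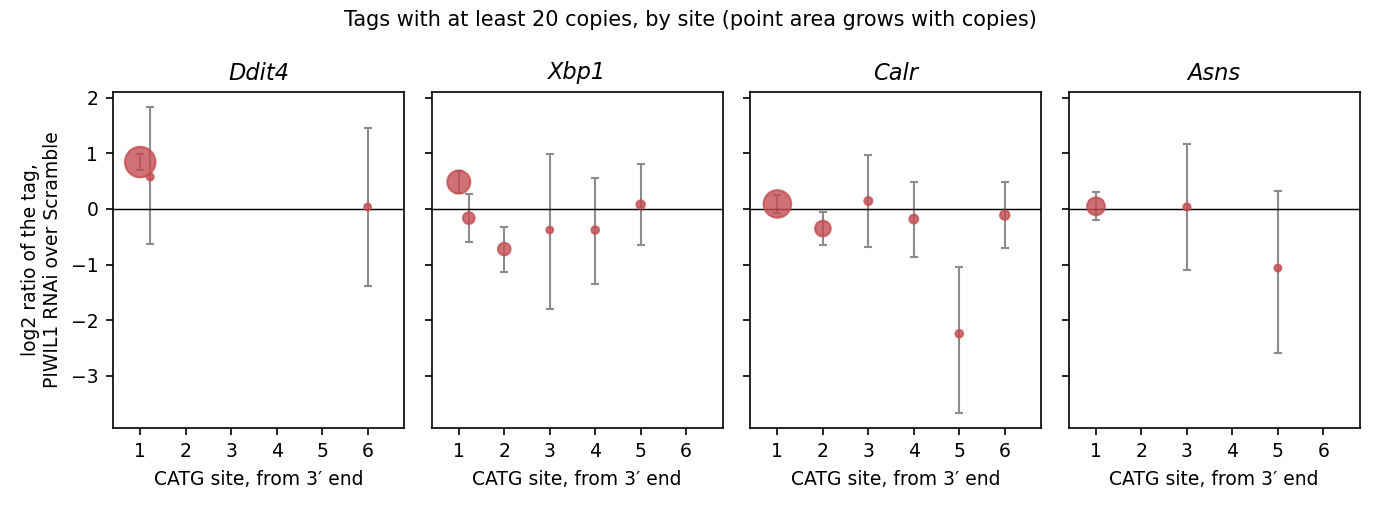
Log2 ratio of every tag that reached 20 copies over both libraries (bars, exact 95% intervals; area grows with copies) against the CATG site counted from the 3′ end, for Ddit4, Xbp1, Calr and Asns. In Xbp1 the main tag at site 1 stands at 0.48 and the tag at site 2 at -0.72, and in Calr the tag at site 5 stands at -2.24.

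Of the ER proteins, Herpud1 (NM_053523), a membrane protein of ER-associated degradation, was higher by less than the fold for a call. It had 162 copies in Scramble and 210 in RNAi, which were 47.8 TPM (40.8 to 55.8) and 63.6 TPM (55.3 to 72.8). The log2 ratio was 0.41 (0.11 to 0.72; FDR 0.0293, Fisher's exact test). After the tag-end correction it was 0.31 (FDR 0.199, Fisher's exact test). Its main tag had 159 and 203 copies and stood above 78.0% of the 804 other tags ending in TA.

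Calr (NM_022399), the calcium-binding chaperone calreticulin of the ER lumen, did not differ as a whole beyond counting error. It had 1035 copies in Scramble and 969 in RNAi, which were 306 TPM (287 to 325) and 293 TPM (275 to 312). The log2 ratio was -0.06 (-0.19 to 0.07) and the FDR 0.811 by Fisher's exact test, and with edgeR's TMM factors its sign turned, at 0.04. Its main tag had 655 and 680 copies. Of its 6 tags that reached 20 copies, 2 stood higher in RNAi and 4 lower.

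The tags of the other sites of Calr were lower together, with 380 copies in Scramble and 287 in RNAi (-0.37, -0.60 to -0.14) against 655 and 682 (0.09, -0.06 to 0.25) at the 3′ most site. This difference of 0.46 passed the FDR (0.00876, Fisher's exact test), with copies not corrected for tag ends. As given above, 8.63% of the 4417 genes had such a call. The main tag ends in AG, a class with a median of 0.11, while the TG class had a median of -0.67. Whether the tag ends account for the difference was not tested. The tag catgtttggtccggacatcTG of the second site had 220 and 168 copies (-0.35), above 62.7% of the TG class. The tag catgagcagaatatcgactGT of the fifth site had 34 and 7 copies (-2.24, -3.66 to -1.05), lower than all but 2.21% of the 633 other tags ending in GT, whose median was -0.67.

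**Figure D4:**
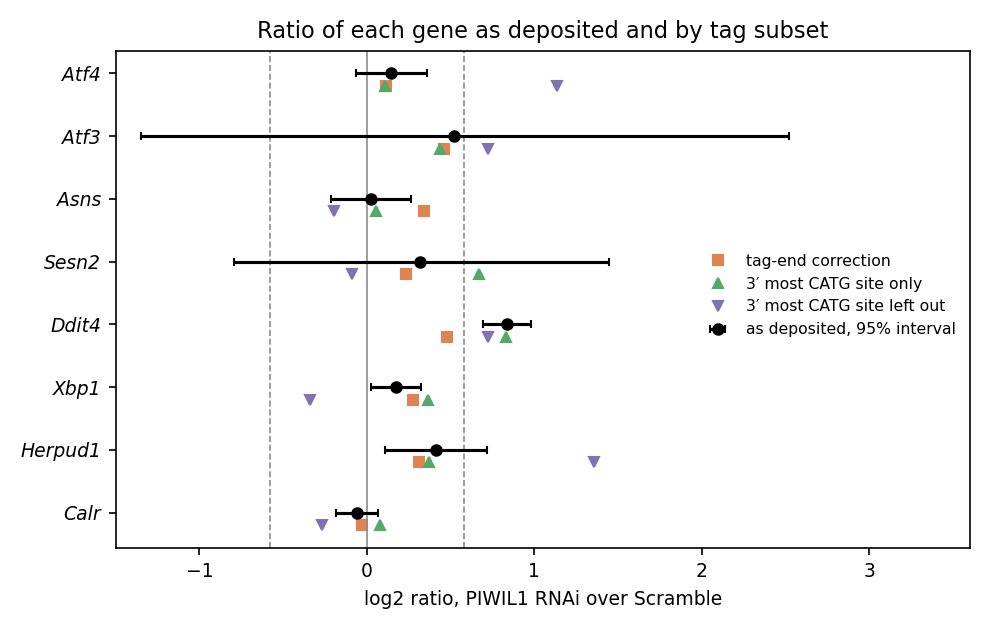
Log2 ratio of the 8 genes as deposited (black, exact 95% interval), after the tag-end correction (orange squares), with tags of the 3′ most CATG site only (green) and with that site left out (purple); dashed lines mark 0.58 and -0.58. Ddit4 stays above 0 in each form but falls to 0.48 after the correction, and Xbp1, Asns and Sesn2 change side without the 3′ most site.

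The wider response was described by 4 lists of 99 genes, of which 83 had a value. Of these 3 were called higher (3.61%, against 2.96% of all genes) and 4 lower (4.82%, against 5.97%), and the median log2 ratio was -0.004. Both shares lay near those of all genes and are no result about the lists, and the counts were 3 and 4 with TMM and DESeq2 factors too.

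Among 20 stress sensors and genes of eIF2alpha control, 19 had a value, 1 was called higher and 2 lower, with a median log2 ratio of -0.02. The called genes included subunits of eIF2B, the exchange factor that phosphorylated eIF2alpha blocks. Eif2b3 had 77 copies in Scramble and 113 in RNAi (log2 ratio 0.59, FDR 0.0261), and Eif2b4 had 131 and 70 (-0.87, FDR 0.000909), both by Fisher's exact test. After the tag-end correction neither was called (0.46 and -0.30). The 2 tags of Eif2b4 went apart, with 113 and 49 copies at catgatcccttgcagttctGT and 18 and 21 at catgtgtaacgccatcaagTT. Nfe2l2, the antioxidant factor NRF2 and a substrate of PERK, had 11 copies in Scramble and none in RNAi (FDR 0.00916, Fisher's exact test). Its Scramble level was 3.58-fold a floor of 3 copies in RNAi. Counting error in both libraries leaves a wider range, with a log2 ratio of up to -1.29. The most copied genes were Ppp1cc, a catalytic subunit of the phosphatase, with 1776 and 1945 copies (0.17), and Eif2b2 with 281 and 339 (0.31). Both passed the FDR short of the fold, as did Eif2s1, eIF2alpha itself, in the other direction with 254 and 183 copies (-0.44, FDR 0.0249, Fisher's exact test). After the tag-end correction Ppp1cc turned to -0.02 and Eif2b2 stood at 0.24, neither past the FDR. Eif2s1 stood at -0.34 after it. Eif2s1 and Ppp1r15a (GADD34), the stress-induced subunit that brings the phosphatase to eIF2alpha, are named after their values were seen. Ppp1r15a had 47 and 61 copies (0.41, FDR 0.333, Fisher's exact test).

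Among 33 other genes known as targets of ATF4 or CHOP, 29 had a value, 1 was called higher and none lower, with a median of 0.14. Shmt2, the mitochondrial serine hydroxymethyltransferase, had 129 copies in Scramble and 228 in RNAi (0.86, FDR 4.01e-07, Fisher's exact test). It was called after the tag-end correction too (0.71, FDR 0.00013), and its main tag catgtctacaagaagcactCA had 107 and 200 copies, with 12 and 14 at another tag. Without the 3′ most site Shmt2 had 22 and 28 copies (0.48, FDR 0.589, Fisher's exact test) and was not called. The most copied genes were Psat1 of serine synthesis, with 649 and 503 copies (-0.33), and the amino acid transporter Slc38a2. Slc38a2 had 514 and 617 copies (0.30), and both genes passed the FDR short of the fold. After the tag-end correction Psat1 stood at -0.18 and no longer passed the FDR, while Slc38a2 stood at 0.26 and did. Atf5 and Chac1, neither of which passed the FDR, are named after their values were seen. Atf5, a factor related to ATF4, had 7 and 19 copies (1.47, FDR 0.0877, Fisher's exact test), and Chac1, a glutathione-degrading enzyme, 38 and 42 (0.18).

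Among 20 ER chaperones and folding enzymes, 15 had a value, 1 was called higher and 1 lower, with a median of -0.15. P4hb, a protein disulfide isomerase, had 502 copies in Scramble and 745 in RNAi (0.61, FDR 9.39e-13, Fisher's exact test). Its main tag, catgtggcctgtgtgaggcAG, had 259 and 507 copies, and without the 3′ most site its log2 ratio was 0.11. After the tag-end correction P4hb stood at 0.54 and was no longer called. Dnajc10, an ER reductase, had 240 and 140 copies (-0.74, FDR 3.91e-05), remained called after the correction (-0.68), and each of the 5 tags that reached 20 copies was lower in RNAi. The most copied genes were Hsp90b1 (GRP94) with 1429 and 1633 copies (0.23) and the lectin chaperone Canx with 1250 and 1085 (-0.17). For Hsp90b1 the tag-end correction turned the sign, to -0.33. Hsp90b1 passed the FDR short of the fold, as did a pair named after their values were seen, which went apart. Hspa5 (BiP), the chaperone that holds the ER sensors inactive, had 1035 and 1209 copies (0.26, FDR 5.25e-05, Fisher's exact test). Pdia3, a disulfide isomerase that works with Calr on glycoproteins, had 480 and 373 (-0.33, FDR 0.0194, Fisher's exact test). After the tag-end correction Hspa5 stood at 0.12 and Pdia3 at -0.33.

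Among 26 genes of ER-associated degradation and translocation, 20 had a value, none was called higher and 1 lower, with a median of 0.005. Sec61g, the small subunit of the translocon, had 300 copies in Scramble and 166 in RNAi (-0.82, FDR 2.03e-07, Fisher's exact test). All its copies were on 1 tag, catgaagtaaaagttgcctGG, whose end class had a median of -0.55, and after the correction it stood at -0.27. The ATPase Vcp, with 3320 and 3970 copies (0.29), passed the FDR short of the fold, and Sec61a1, the channel subunit, had 1215 and 1212 copies (0.03). The other genes past the FDR alone, named after their values were seen, were Sec61b of the translocon with 894 and 1094 copies (0.33), the ubiquitin-conjugating enzyme Ube2g2 with 257 and 177 (-0.50) and Ssr3 with 643 and 513 (-0.29). After the tag-end correction Vcp stood at 0.14, Sec61b at 0.19, Ube2g2 at -0.32 and Ssr3 at -0.04.

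**Figure D5:**
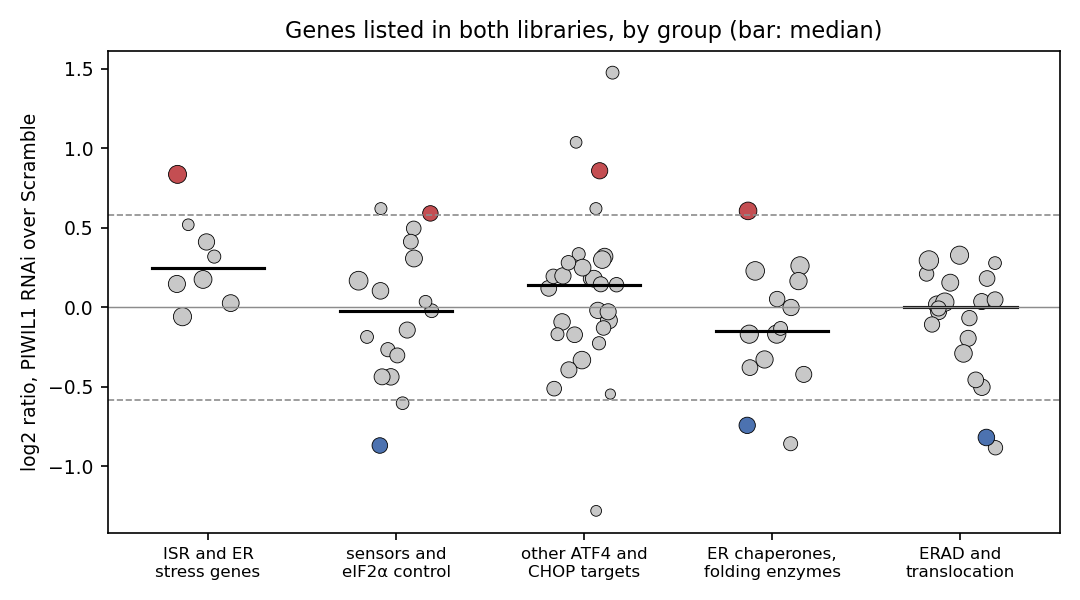
Log2 ratio of each gene listed in both libraries, for the 8 members and the 4 wider lists (red, called higher; blue, called lower; grey, not called; area grows with copies; bar, median; dashed lines, 0.58 and -0.58). The medians are 0.25, -0.02, 0.14, -0.15 and 0.005, and 1, 1, 1, 1 and 0 genes are called higher.

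The promoters were searched because these genes share known control sequences. RefSeq promoter windows of build GRCr8, from 250 bases before to 50 after the start, were given for 9 of the 10 genes, Atf3 excepted. The ER stress response element, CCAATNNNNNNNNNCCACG on either strand, was in 22 of 33469 promoters (0.0657%), and these included Xbp1 and Calr. Capitals mark the matched letters and lower case the spacer, read along the strand of the gene, so the match in Calr appears as its reverse complement.
Xbp1, chr14:84604558-84604576 (GRCr8, plus strand): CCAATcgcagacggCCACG
Calr, chr19:40213135-40213153 (GRCr8, plus strand): CGTGGtcgaccctgATTGG
The match in Xbp1 lies 65 to 47 bases before the start and that in Calr 232 to 214 bases before it. Both genes were short of the fold in these libraries, at 0.17 and -0.06. The composite site TGATGNAA of C/EBP and ATF factors was in 3.98% of promoters, and among these genes in those of Herpud1 and Trib3. The cAMP response element TGACGTCA was in 1.83% of promoters and in none of the 9. CCAAT, which the ER stress response element contains, was in 37.5% of all promoters and in 6 of the 9, those of Calr, Ddit3, Ddit4, Herpud1, Sesn2 and Xbp1. The window of Ddit4 held CCAAT and no match to the other elements, which says only that those letters are not in this window.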

How the data were processed

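Each library was deposited by the authors as a table of genes with a count, the sum of the copies of the gene's 21-base tags, and a TPM, which the authors scaled to all clean tags (3386860 in Scramble, 3303344 in RNAi) and not to transcript length. The tag copies were deposited too, none below 2. The submitters' processing notes name genome build rn4, and the tag mapping program is not given in the sources used here. RefSeq accessions were paired with symbols for 94.4% of the 9894 genes through a RefSeq table of build GRCr8.

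The members and lists were chosen with earlier results of these data known. Fisher's exact test (two-sided) compared a gene's copies with all other copies on genes (SciPy 1.17.1), with Benjamini-Hochberg adjustment over all genes. Ratios used the deposited TPM. Intervals are exact 95% binomial (Clopper-Pearson) intervals and cover counting error only, as do the floors of 3 copies. Replicates were absent, so edgeR's quasi-likelihood test could not be fitted, and p-values compare the 2 libraries. For the tag-end correction the median log2 ratio of each end class, relative to that of all tags, was taken out of each tag. It was estimated in a random set of genes that did not include the tag's own. The test between sites was added after the tags were seen and used copies not corrected for tag ends. Named genes were all 10 members, the called genes of each wider list (up to 5 a direction) and its 2 most copied genes, with exceptions stated where they occur. The scripts were tested on simulated data. Alternatives used edgeR 4.0.16 and DESeq2 1.42.0 in R 4.3.3, on counts as deposited.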

Additional observations from a re-analysis of the deposited data

How the results depend on the processing

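The results were recomputed under 15 alternatives, and under 3 more chosen after seeing the data: without tags that end in a run of 3 A or longer, without the 3′ most CATG site, and with that site alone. Ddit4 was called in 12 of the 18. Over all 18 its log2 ratio lay between 0.48, after the tag-end correction and without a call, and 0.93. Many of the 12 could hardly move it, so their number does not measure how firm the call is. Filters on copies, summing copies per symbol and the FDR of 0.001 left its log2 ratio at 0.835. It had 0 copies on tags ending in 8 or more A. The call was lost with the tag-end correction and with each setting that dropped its main tag. The tag-end correction gave 354 genes lower in all, 0 members higher, and 1 wider gene higher and 2 lower. A log2 threshold of 1 gave 146 higher and 262 lower in all, 0 members, and 0 wider genes higher and 1 lower. An FDR of 0.001 gave 163 and 257 in all. With the exact test of edgeR, at a coefficient of variation between cultures set to 0.1, 114 and 170 genes were called in all, 1 wider gene higher and 1 lower, and Ddit4 kept its call (FDR 0.00615). At 0.2 these were 15 and 2 in all, 0 and 0 in the wider lists, and 0 members (Ddit4 FDR 0.914 and unadjusted p 0.0403). At 0.4 there were 0 calls in every group, with 114 genes at an unadjusted p under 0.05. Without the tags ending in such runs of A, 0 members were called (Ddit4 0.75, FDR 0.141) and Calr turned to 0.0064. Without the 3′ most site, with ratios scaled to the tags kept, 130 and 245 genes were called in all, 0 members, 1 wider gene higher and 2 lower, and Ddit4 stood at 0.72 (FDR 0.232). There Xbp1 turned to -0.34, Asns to -0.19 and Sesn2 to -0.086. Calr, at -0.06, turned to 0.0775 with that site alone, 0.0354 with TMM factors and 0.0259 with DESeq2 size factors, which moved the median of all genes from -0.085 to 0.0095 (TMM). The cause of these changes was not tested, beyond the fewer copies that the leaving out of tags leaves. No paired analysis was possible because each group had 1 library, and for the same reason no replicate could be left out. Counting error was widest for Atf3 and Sesn2, with 12 and 31 copies over both libraries.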
